A study of Mus musculus with 4 samples.

Results

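The genes described here encode matrix metalloproteinases (Mmp), the Adamts proteases (secreted metalloproteinases with thrombospondin repeats) and the tissue inhibitors of metalloproteinases (Timp). They are the mouse genes whose symbol is Mmp, Adamts or Timp followed by a number, with or without a final letter. Only genes listed as protein-coding in the annotation used (GENCODE M21) were taken, and the Adamts-like genes were left out. This rule gave 45 genes (22 Mmp, 19 Adamts and 4 Timp) of 25556 named genes, and it used no measured value. RNA of stromal cells from the prostate of adult C57BL/6 mice was compared between the proximal part of the ducts, which joins the urethra, and their distal part, at the tips of the lobes. In both groups the sort kept Sca-1+ cells that lacked CD24, CD49f and lineage markers, which the labels do not list, and no treatment or engineered allele is named for either. Each region had 2 libraries, with the numbers 2 and 3, called here distal 2, distal 3, proximal 2 and proximal 3. No label says whether libraries came from separate or pooled animals, so p-values reflect nothing beyond the variation among these 4 libraries, and that variation may be technical.

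Mmps are zinc-dependent proteases that are made as inactive precursors and cleave collagens, elastin, fibronectin and other matrix proteins. Adamts proteases cut large proteoglycans such as versican and aggrecan, or trim procollagens so that fibrils can form, and Timps bind the active site of many of these enzymes. In prostate, as in other glands, stromal fibroblasts make much of the matrix around the ducts and many of the enzymes that remodel it.

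The Mmp genes include a cluster on chromosome 9, and its promoter sequences are shown first because they share a feature that the choice of genes did not use. The cluster held 9 of the 22 Mmp genes within 427.1 kb: Mmp13, Mmp12, Mmp1b, Mmp3, Mmp10, Mmp8, Mmp27, Mmp20 and Mmp7. Mmp1a was not among the 22 Mmp genes listed, so the counts given here do not include it. AP-1, the dimer of Fos and Jun proteins, binds the heptamer TGAGTCA, which reads TGACTCA on the other strand. RefSeq promoter windows (build GRCm38.p6, the same assembly as mm10) were searched on both strands over the 250 bases before each start. The heptamer was in the window of 6 of the 9 cluster genes and of 0 of the 22 other members with a window, against 1395 of all 27025 genes with a window (5.16%) and 4.46% of all 32851 windows. The 100 bases before the start are printed 5′ to 3′ on the gene's strand, with the heptamer in capitals.
Mmp3, chr9:7445722-7445821, plus strand: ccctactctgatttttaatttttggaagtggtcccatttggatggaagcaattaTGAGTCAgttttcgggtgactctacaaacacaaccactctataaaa
Mmp10, chr9:7502242-7502341, plus strand: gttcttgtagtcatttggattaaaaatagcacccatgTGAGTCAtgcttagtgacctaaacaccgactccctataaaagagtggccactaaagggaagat
Mmp7, chr9:7691990-7692089, plus strand: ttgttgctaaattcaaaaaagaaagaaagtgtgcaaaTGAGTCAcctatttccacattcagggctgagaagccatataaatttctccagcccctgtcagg
Mmp12, chr9:7347274-7347373, plus strand: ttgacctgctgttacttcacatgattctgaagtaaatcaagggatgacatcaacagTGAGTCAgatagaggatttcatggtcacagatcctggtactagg
Mmp13, chr9:7272414-7272513, plus strand: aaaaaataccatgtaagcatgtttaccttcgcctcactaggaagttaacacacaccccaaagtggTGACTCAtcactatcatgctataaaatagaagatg
Mmp1b, chr9:7388027-7388126, minus strand: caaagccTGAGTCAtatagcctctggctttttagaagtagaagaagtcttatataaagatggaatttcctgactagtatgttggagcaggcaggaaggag

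The heptamer began 46 bases before the start in Mmp3, 63 in Mmp10 and in Mmp7, 44 in Mmp12, 35 in Mmp13 and 93 in Mmp1b. Mmp12 and Mmp7 have a second RefSeq start each, whose window lacks the heptamer. These are matches of letters, not measured binding sites, and the cluster genes are related copies, so they are not independent of each other. They are set beside the levels of the 6 genes below. The 14 members without a window were Adamts4, Adamts5, Adamts6, Adamts7, Adamts8, Adamts10, Adamts15, Adamts16, Adamts19, Mmp2, Mmp9, Mmp16, Mmp17 and Mmp19.

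The values are FPKM (fragments per kilobase of transcript, scaled to the library), summed here per gene. Paired values are given with library 2 first and library 3 second, and where pairs are set against each other the distal pair comes first. Of the 45 members, 27 reached 1 FPKM in at least 1 library and 25 reached it in at least 2 libraries, which was the condition for testing. The other 18 stayed under 1 FPKM in all 4 libraries. They were Mmp1b, Mmp8, Mmp9, Mmp12, Mmp13, Mmp15, Mmp20, Mmp21, Mmp24, Mmp25, Mmp27, Mmp28, Adamts6, Adamts13, Adamts16, Adamts17, Adamts18 and Adamts20. Mmp1b, Mmp8, Mmp24 and Adamts18 were listed at 0 in every library. The interstitial collagenases among the listed members, Mmp1b, Mmp8 and Mmp13, were thus low genes, as was the gelatinase Mmp9, at 0.0331 to 0.158 FPKM. Mmp24 is overlapped by a transcript of BC029722 that reached 15.6 FPKM, and reads of overlapping genes can be shared.

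Limma (fitted with region as its single term, on log2(FPKM + 1) of 11206 genes) called 0 members and 0 genes in all, or 0.0% in each direction at an adjusted p of 0.05. At an unadjusted p under 0.05 there were 2 members, Mmp3 and Adamts4, both with higher distal values, against 0.901% of all tested genes in that direction and 2.26% in the other. The proximal pair lay wholly above the distal pair for 6 of the 25 tested members (12.9% of all tested genes) and wholly below it for 3 (8.67%). With 2 libraries on each side, the smallest p of a two-sided exact permutation test is 0.333. The differences described below are given as values of these 4 libraries, and were not called in this fit. Fold changes on the log2(FPKM + 1) scale understate the change of low genes.

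Each difference was also read within number 2 and within number 3, with no test. It had the same sign in both numbers for 20 of 25 members, as it did for 67.0% of all tested genes. Mmp3 and Adamts4 were the 2 members at least 2-fold apart (in FPKM + 1) within both numbers, both with higher distal values, against 0.776% of all tested genes. With higher proximal values this held for 0 members, against 1.91% of all genes. That count depends on the added 1 FPKM. For Adamts15 the plain FPKM ratio, proximal over distal, was 2.67 within number 2 and 2.07 within number 3. Of the 25 members 13 had a higher proximal mean on the log2(FPKM + 1) scale, on which such counts are made throughout, a number that became 12 under quantile normalization and 10 under median ratio scaling, against 60.3% of all genes (46.8% and 44.2%). The members' median log2 difference, proximal minus distal, was 0.01, beside 0.09 over all tested genes. Quantile normalization moved the median of all genes by -0.12 and median ratio scaling by -0.14.

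**Figure D1:**
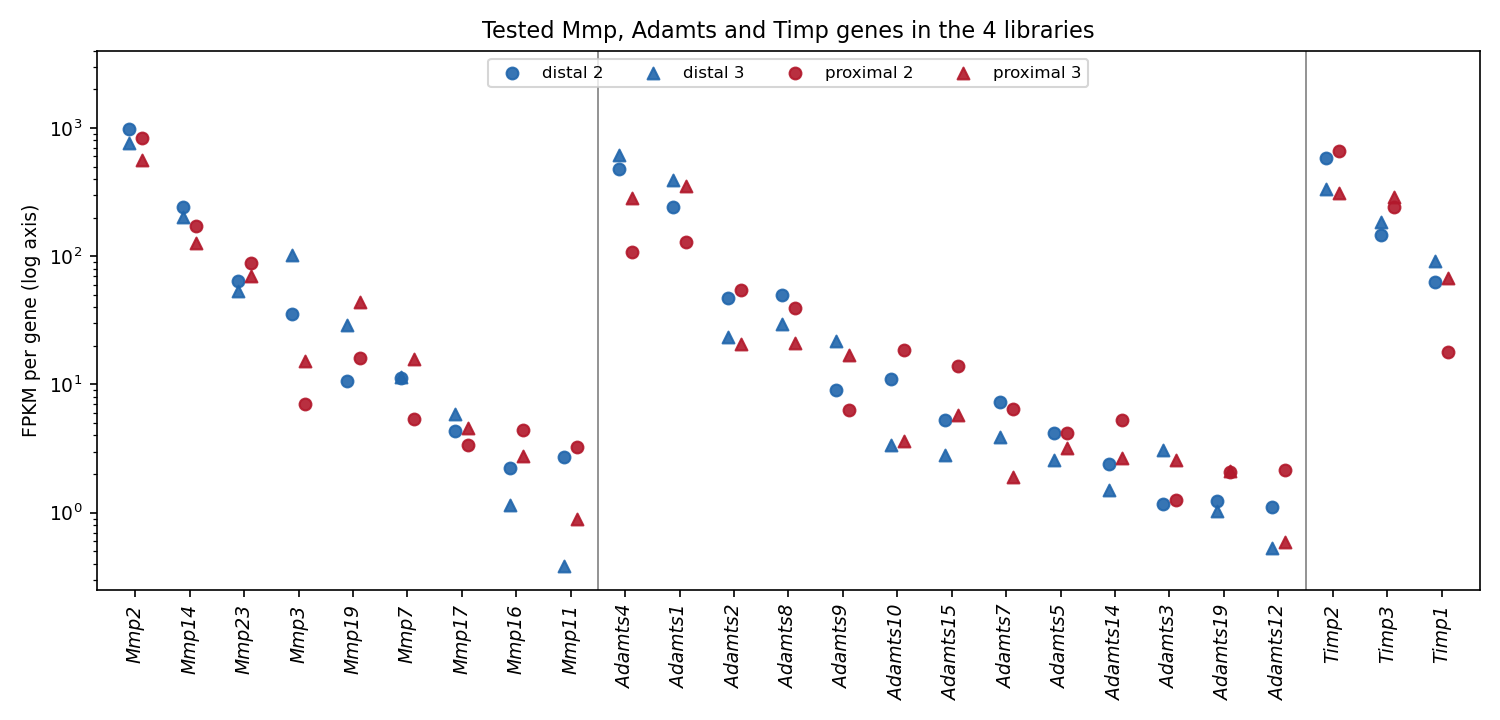
FPKM per gene (log axis) of the 25 tested members in each library, ordered by mean level within the Mmp, Adamts and Timp families. Blue marks distal and red proximal libraries, and circles mark number 2 and triangles number 3. Mmp3, Adamts4 and Mmp14 lie higher in both distal libraries, and 6 members lie higher in both proximal libraries. Others separate by library number rather than by region, 7 higher and 9 lower in number 3 (20.3% and 50.3% of all tested genes).

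**Figure D2:**
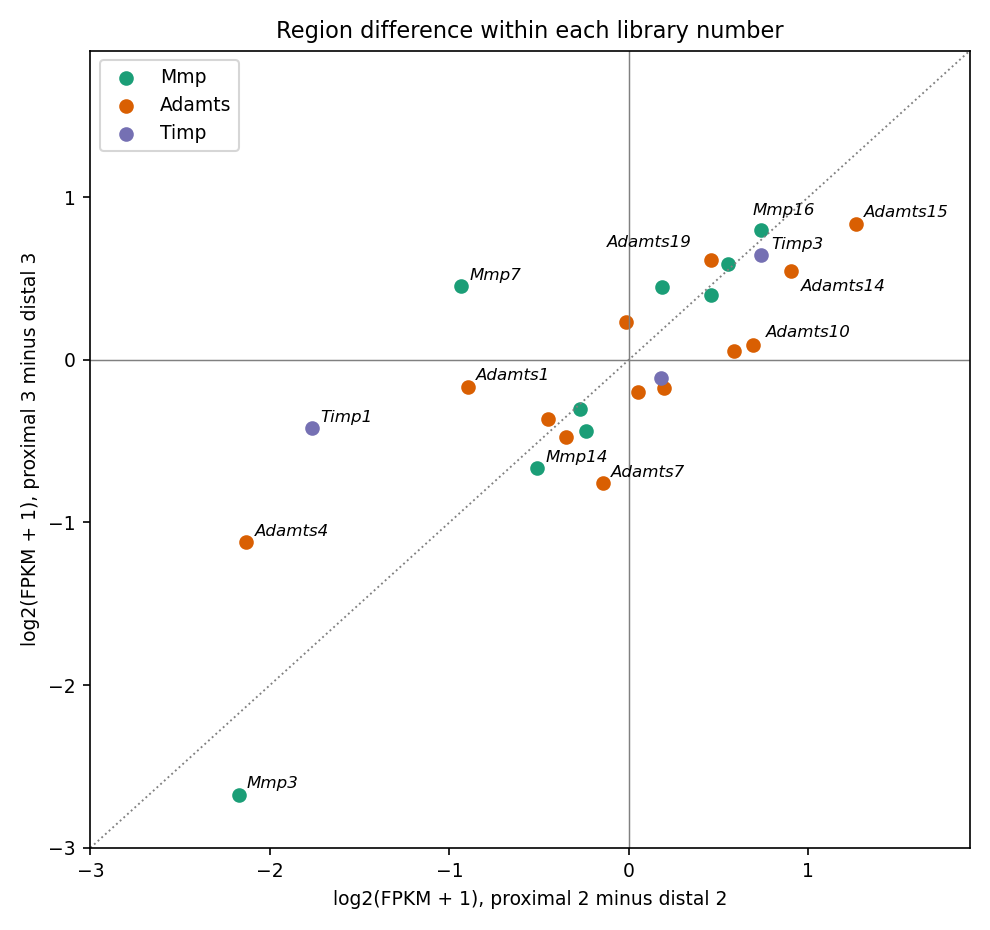
Difference in log2(FPKM + 1) between proximal and distal libraries of number 2 (horizontal) and of number 3 (vertical) for the 25 tested members, with members past 0.6 in either number named. The dotted line marks equal differences. Mmp3 (-2.17 and -2.67) and Adamts4 (-2.13 and -1.12) lie far to the lower left, and Mmp7 has opposite signs (-0.93 and 0.45).

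Stromelysins are Mmps that cut many matrix proteins, and stromelysin 1 (Mmp3) also activates the precursors of other Mmps. Mmp3 had distal levels of 35.1 and 103 FPKM and proximal levels of 7.004 and 15.3 FPKM. Both distal libraries lay above both proximal ones, and the lowest distal value was above the highest proximal value. The deposited bounds of the single Mmp3 transcript, which cover estimation error within a library, were 33.4 to 36.8 FPKM in distal 2 and 14.1 to 16.5 FPKM in proximal 3. The distal mean was 69.0 ± 48.0 FPKM and the proximal mean 11.2 ± 5.87 FPKM (SD, n = 2 each). The ratio of distal to proximal FPKM was 5.02 within number 2 and 6.73 within number 3. The log2 difference, proximal minus distal, was -2.42 ± 0.65 (SE), with an unadjusted p of 0.0126 and an adjusted p of 0.99727 (limma). Fits without 1 library called Mmp3 without distal replicate 2 (log2 difference -3.19, limma adjusted p = 0.00749) and without proximal replicate 3 (-2.94, adjusted p = 0.0133), but not without distal replicate 3 (-1.66, adjusted p = 0.9999) or without proximal replicate 2 (-1.91, adjusted p = 0.436). Such fits leave only 1 number in 1 region and so mix region with number. Mmp3 lies on chromosome 9 at 7445822 to 7455975 (plus strand, mm10).

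Among the Adamts genes the proteoglycanases Adamts4 and Adamts1 were far above the rest. Adamts4, an aggrecanase that also cuts versican, had distal levels of 478 and 620 FPKM and proximal levels of 108 and 285 FPKM. Both distal libraries lay above both proximal ones. Deposited bounds of the expressed transcript were 458 to 498 FPKM in distal 2 and 273 to 297 FPKM in proximal 3, which do not touch. The distal mean was 549 ± 100.2 FPKM and the proximal mean 197 ± 125 FPKM (SD, n = 2 each). The ratio of distal to proximal FPKM was 4.42 within number 2 and 2.17 within number 3. The log2 difference was -1.63 ± 0.53 (SE), with an unadjusted p of 0.0265 and an adjusted p of 0.99991 (limma). Without proximal replicate 3 it was -2.32 and passed (limma adjusted p = 0.00429), and it did not pass without proximal replicate 2 (-0.93), distal replicate 2 (-1.81) or distal replicate 3 (-1.44). Adamts4 lies on chromosome 1 at 171250421 to 171260637 (plus strand, mm10).

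Stromelysin 2 (Mmp10), the next listed cluster gene after Mmp3, had distal levels of 0.299 and 3.52 FPKM and proximal levels of 0.186 and 0.135 FPKM. It reached 1 FPKM in the same library in which Mmp3 was highest, distal 3, and was not tested. The third cluster gene above 1 FPKM was the matrilysin gene Mmp7, a small protease known mainly from epithelia. Mmp7 had distal levels of 11.2 and 11.4 FPKM and proximal levels of 5.40 and 15.9 FPKM, so that the proximal libraries lay on either side of both distal ones. Its log2 difference was -0.24 ± 0.56 (SE), with opposite signs in the numbers (-0.93 and 0.45). Summed over 9 epithelial marker genes, the level was 42.2 and 104 FPKM in distal 2 and distal 3 and 45.3 and 339 FPKM in proximal 2 and proximal 3, highest in the library with the highest Mmp7. Its part in the Mmp7 values was not tested.

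The other cluster genes stayed below 1 FPKM. Mmp12, the macrophage elastase gene, reached at most 0.695 FPKM, Mmp13 0.438 FPKM, Mmp27 0.0587 FPKM and Mmp20 0.0112 FPKM. Of the 6 genes with the heptamer, Mmp3, Mmp7 and Mmp10 reached 1 FPKM in some library and Mmp12, Mmp13 and Mmp1b did not. Macrophages and neutrophils are known sources of Mmp8, Mmp9 and Mmp12, and 9 leukocyte markers summed to 5.02 and 16.6 FPKM in distal 2 and distal 3 and to 3.05 and 9.92 FPKM in proximal 2 and proximal 3. Of these markers 5 stayed under 1 FPKM in all 4 libraries, among them Ptprc, found on all leukocytes, at no more than 0.1198 FPKM, and Cd3e of T cells, listed at 0. The neutrophil gene S100a8 had distal levels of 1.63 and 12.5 FPKM and proximal levels of 0.359 and 5.60 FPKM, Cd68 of macrophages reached 1.87 FPKM and Lyz2 of myeloid cells 1.39 FPKM (all 5 were chosen after their values were seen). Of the 9 markers, S100a8, Lyz2, Cd79a and Itgam were highest in distal 3, as Mmp3 and Mmp10 were. Ptprc and Cd68 were highest in proximal 3, Csf1r in distal 2 and Adgre1 in proximal 2. The part of such cells in these levels was not tested.

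**Figure D3:**
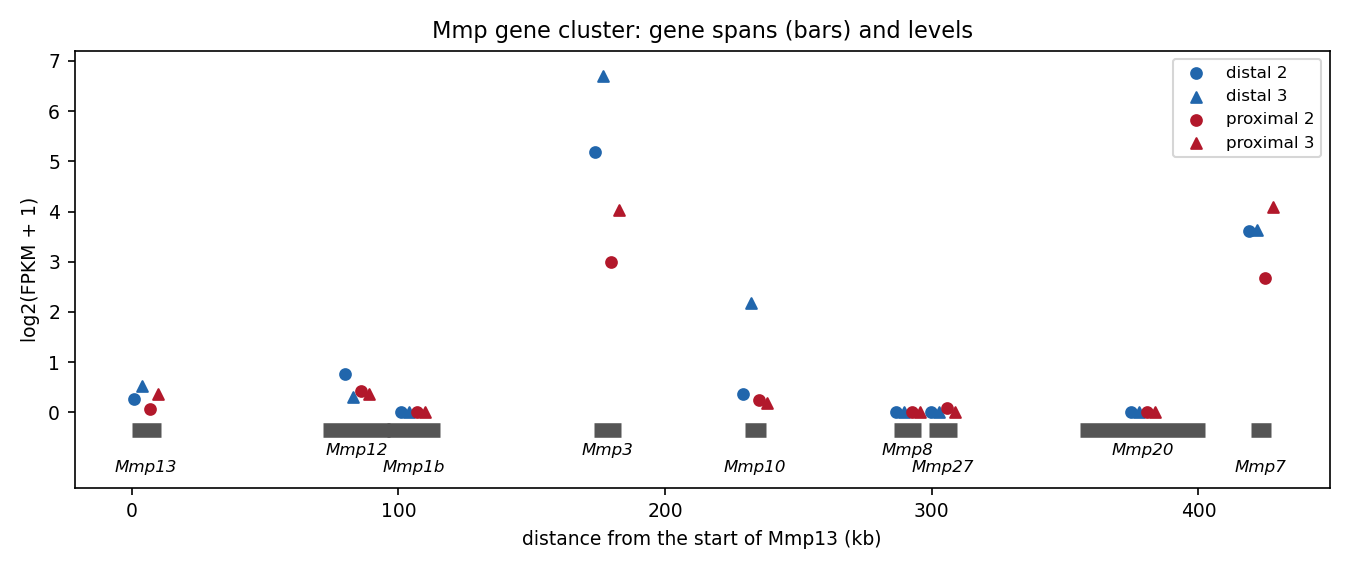
Levels of the 9 Mmp genes of the cluster as log2(FPKM + 1) above their gene spans (bars), by distance from the start of Mmp13 in kb. Blue marks distal and red proximal libraries, circles number 2 and triangles number 3. Mmp3 is high in the distal libraries, Mmp10 is seen in distal 3, and the genes between Mmp10 and Mmp7 lie near 0.

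The heptamer's binding factors were abundant in all libraries. Of 7 genes of the AP-1 factors, 6 were tested and 0 passed, 4 with a higher proximal and 2 with a higher distal mean (median log2 difference 0.53). The remaining gene, Jund, had no transcript named by position and so had no value here. Fosb had distal levels of 235 and 201 FPKM and proximal levels of 385 and 459 FPKM, with no overlap between regions. Fos had distal levels of 2084 and 519 FPKM and proximal levels of 3311 and 1399 FPKM. Jun stood at 503 and 126 against 832 and 204 FPKM. Fosl1 stood at 273 and 514 against 126 and 586 FPKM, Fosl2 at 103 and 111 against 69.5 and 116 FPKM and Junb at 3196 and 1600 against 3811 and 2172 FPKM (these 3 were chosen after their values were seen). Fos, Jun and Junb were lower and Fosl1 and Fosl2 higher in both libraries numbered 3. The part of these factors in the levels of Mmp3 was not tested.

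The gelatinase Mmp2, which degrades denatured collagen and basement membrane collagen, was the most abundant member. It had distal levels of 979 and 760 FPKM and proximal levels of 831 and 562 FPKM. The regions overlapped, and within each number the proximal library was the lower one (log2 difference -0.34 ± 0.37, SE, limma adjusted p = 0.99991). Mmp2 made up 33.3% to 54.5% of the summed FPKM of all Mmp and Adamts genes in a library.

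Mmp14, the membrane-anchored Mmp that activates the Mmp2 precursor together with Timp2, was second among the Mmps. It had distal levels of 243 and 202 FPKM and proximal levels of 171 and 127 FPKM. Both distal values lay above both proximal values, also after median ratio scaling (224 and 242 against 137 and 137). The log2 difference was -0.59 ± 0.33 (SE), -0.51 within number 2 and -0.67 within number 3, with an adjusted p of 0.99991 (limma). Mmp2 and Mmp14 thus had the same sign in both numbers, with Mmp2 overlapping between regions and Mmp14 not.

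Of the other tested membrane-bound Mmps, Mmp23 and Mmp16 had higher proximal values and Mmp17 had not. Mmp23, which is held in the membrane by its N-terminal end, had distal levels of 64.6 and 53.5 FPKM and proximal levels of 88.9 and 70.7 FPKM (log2 difference 0.43 ± 0.32, SE). Mmp16, a further transmembrane Mmp, stood at 2.23 and 1.15 against 4.40 and 2.75 FPKM (0.77 ± 0.46, SE). Neither gene overlapped between regions. Mmp17, which has a lipid anchor, had distal levels of 4.30 and 5.87 FPKM and proximal levels of 3.40 and 4.56 FPKM, with overlap (-0.29 ± 0.42, SE). Mmp15 was at most 0.695 FPKM and Mmp25 at most 0.104 FPKM.

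Mmp19 and Mmp11 differed more by library number than by region. Mmp19, a secreted Mmp that cuts basement membrane proteins, stood at 10.7 and 16.1 FPKM in the distal and proximal libraries of number 2 and at 28.9 and 44.0 FPKM in those of number 3. The proximal value was the higher one in both pairs, by 1.51 and 1.52 times. Mmp11, known from the stroma around tumours, stood at 2.73 and 3.25 FPKM in number 2 and at 0.386 and 0.893 FPKM in number 3. Mmp19 was thus higher and Mmp11 lower in number 3. A transcript of Tmem198b, which overlaps Mmp19, reached 9.13 FPKM, and reads of overlapping genes can be shared. Both libraries numbered 3 lay above both numbered 2 for 7 of the 25 members (20.3% of all tested genes) and below them for 9 (50.3%).

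Adamts1, a versican-cutting protease of wide expression, had distal levels of 242 and 395 FPKM and proximal levels of 129 and 352 FPKM. The regions overlapped, and the log2 difference of -0.53 ± 0.57 (SE) was mostly that of number 2 (-0.90, against -0.16 within number 3). Set against Adamts1 in the same library, Adamts4 was 1.98 and 1.57 times as high in distal 2 and distal 3 and 0.838 and 0.809 times as high in proximal 2 and proximal 3. Adamts4 was therefore the leading Adamts gene in both distal libraries and Adamts1 in both proximal ones, an order that library scaling cannot change. Together they made up 60.4% to 91.4% of the summed Adamts FPKM.

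The remaining proteoglycanases had lower levels. Adamts15 had distal levels of 5.24 and 2.81 FPKM and proximal levels of 14.0 and 5.81 FPKM, with no overlap. Its proximal FPKM was 2.67 and 2.07 times the distal FPKM within numbers 2 and 3, and its log2 difference was 1.05 ± 0.57 (SE). That difference became 0.48 without proximal replicate 2 and 1.62 without proximal replicate 3. Adamts8 stood at 50.3 and 29.9 against 39.2 and 21.2 FPKM, Adamts9 at 9.03 and 21.9 against 6.35 and 16.8 FPKM and Adamts5 at 4.21 and 2.59 against 4.15 and 3.22 FPKM, all with overlap. Adamts8 and its chromosome 9 neighbour Adamts15 were both lower in number 3 within each region, and Adamts9 was higher there. Adamts20 stayed at 0.135 to 0.877 FPKM. An antisense gene that overlaps Adamts9, 9530026P05Rik, had transcripts of up to 2.16 FPKM, and reads of the pair cannot be told apart in this unstranded library type.

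The procollagen N-proteinases, which remove the amino-terminal propeptides of fibrillar procollagens, followed library number except for Adamts14. Adamts14 had distal levels of 2.38 and 1.51 FPKM and proximal levels of 5.32 and 2.68 FPKM, without overlap (log2 difference 0.73 ± 0.48, SE). Adamts2, the main enzyme of this group here, measured 47.6 (distal) and 54.6 FPKM (proximal) in number 2 and 23.4 and 20.7 FPKM in number 3. Its log2 difference was 0.01 ± 0.60 (SE), with a 95% interval of -1.52 to 1.54 that leaves room for large differences of either sign. Adamts3 stood at 1.18 and 1.26 FPKM in number 2 and at 3.09 and 2.57 FPKM in number 3, the opposite order. Adamts2 and Adamts3, which act on the same kind of substrate, thus differed in opposite directions between the library numbers. Of the 2 listed Adamts2 transcripts, 1 had 21.4, 7.76 and 23.9 FPKM in distal 2, distal 3 and proximal 2 and 0 in proximal 3. Without that transcript, under the first naming rule alone, the log2 difference of Adamts2 was 0.30.

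Of the other Adamts genes, Adamts19 did not overlap between regions, with distal levels of 1.23 and 1.04 FPKM and proximal levels of 2.07 and 2.12 FPKM (log2 difference 0.54 ± 0.37, SE). Adamts10, which acts on fibrillin microfibrils, measured 11.1 (distal) and 18.5 FPKM (proximal) in number 2 and 3.35 and 3.62 FPKM in number 3. Its FPKM was divided among several listed transcripts, so the sum is used. Adamts7 and Adamts12, which cut cartilage oligomeric matrix protein, stood at 7.25 and 6.45 FPKM and at 1.11 and 2.17 FPKM in number 2, and at 3.91 and 1.898 FPKM and at 0.531 and 0.591 FPKM in number 3, distal first. All 3 genes were lower in number 3. Adamts13, the protease of von Willebrand factor, was at most 0.0546 FPKM.

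The inhibitors were led by Timp2 and Timp3. Timp3, which stays bound to the matrix and inhibits Adamts proteases as well as Mmps, had distal levels of 146 and 185 FPKM and proximal levels of 243 and 289 FPKM. Both proximal values were higher as deposited. After median ratio scaling the regions overlapped (134 and 221 against 196 and 312). The log2 difference was 0.69 ± 0.32 (SE), 0.74 within number 2 and 0.64 within number 3, with an unadjusted p of 0.0783 and an adjusted p of 0.99991 (limma). Timp3 lies on chromosome 10 at 86300372 to 86349506 (plus strand, mm10).

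Timp2 measured 580 (distal) and 657 FPKM (proximal) in number 2 and 334 and 309 FPKM in number 3. It followed the library number, with a log2 difference between regions of 0.03 ± 0.51 (SE; 95% interval -1.26 to 1.33). Transcripts of Cep295nl, which overlaps Timp2, reached at most 1.44 FPKM. Timp1, the secreted inhibitor that acts poorly on membrane-bound Mmps, had distal levels of 63.1 and 91.1 FPKM and proximal levels of 17.9 and 67.9 FPKM, with overlap (log2 difference -1.09 ± 0.67, SE). It was higher in both libraries numbered 3. Its difference was -1.76 within number 2 and -0.42 within number 3, and it was -0.16 without proximal replicate 2 and -2.03 without proximal replicate 3. Timp4 had proximal levels of 0.675 and 1.13 FPKM and was listed at 0 in distal 2 and distal 3, too low to be tested. Timp1, Timp3 and Timp4 lie within the synapsin genes Syn1, Syn3 and Syn2 on the opposite strand, and these hosts reached at most 0.0489 FPKM.

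Summed levels were compared after the members' values were seen, as a description. The Adamts sum was 862 and 1110 FPKM in distal 2 and distal 3 and 394 and 719 FPKM in proximal 2 and proximal 3, the Mmp sum 1355 and 1171 against 1131 and 845 FPKM, and the Timp sum 789 and 610 against 919 and 667 FPKM. Both distal libraries had the higher Adamts sum and the higher Mmp sum, also after median ratio scaling (Adamts 792 and 1330 against 317 and 775), and the Timp sums overlapped. The Timp sum divided by the sum of both protease families was 0.356 and 0.267 in the distal and 0.603 and 0.427 in the proximal libraries. The ratio was higher in both proximal libraries, and no scaling of whole libraries can alter it.

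The order of the ratio did not rest on Adamts4, since without that gene it was 0.454 and 0.367 against 0.649 and 0.522. Without Timp3 the regions overlapped (0.290 and 0.187 against 0.443 and 0.242). Against the Mmp genes alone the ratio was 0.582 and 0.521 in the distal and 0.812 and 0.790 in the proximal libraries. Against the Adamts genes alone it was 0.915 and 0.549 against 2.33 and 0.928. Without Mmp2 the ratio to both families was 0.637 and 0.401 against 1.32 and 0.666. In both of these, distal 2 and proximal 3 lay close together. Sums weight genes by abundance, so they describe mainly Mmp2, Adamts1, Adamts4, Timp2 and Timp3, and transcript ratios are not ratios of active protein.

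**Figure D4:**
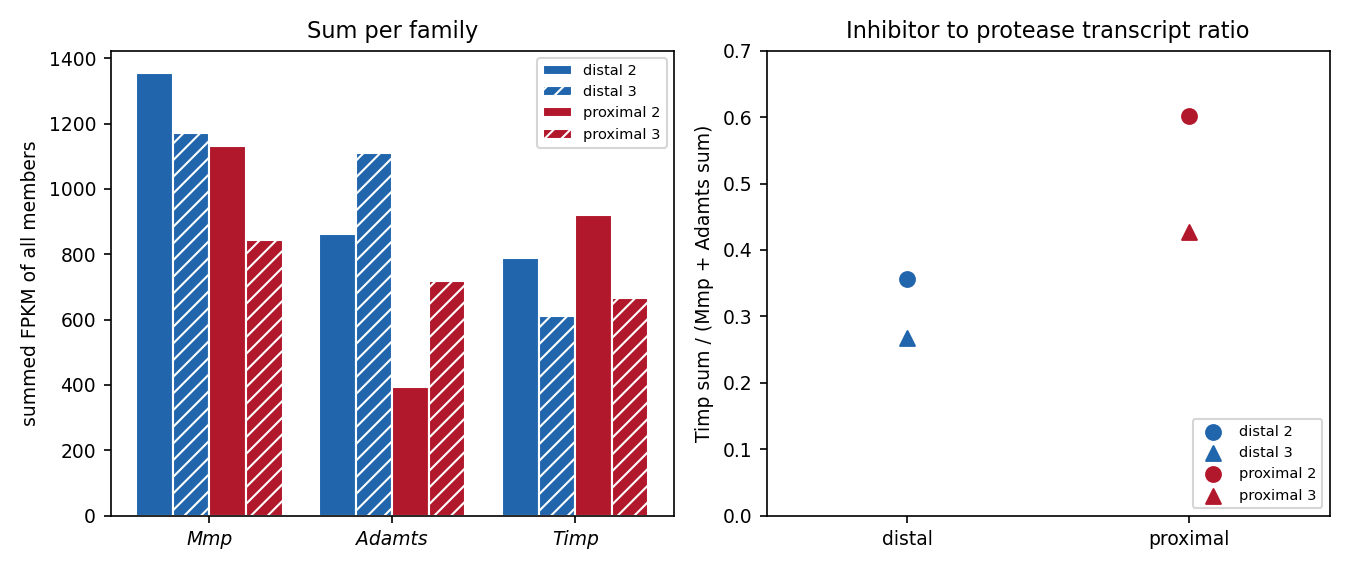
Left, summed FPKM of all Mmp, Adamts and Timp members in each library (bars; hatched bars are number 3). Right, the Timp sum divided by the sum of Mmp and Adamts genes, 1 point per library, at 0.267 and 0.356 in distal and 0.427 and 0.603 in proximal stroma.

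Genes that act with the family were read from 6 further lists, in which 0 genes passed (limma). Of 25 activators and regulators, 21 were tested, 9 with a higher proximal and 12 with a higher distal mean (median log2 difference -0.30). Reck, a membrane protein that inhibits Mmps, had distal levels of 87.4 and 69.1 FPKM and proximal levels of 52.5 and 29.8 FPKM (chosen after its values were seen). Thrombospondin 1 (Thbs1), which binds several Mmps, stood at 1304 and 3070 against 280 and 856 FPKM, Pcolce2, an enhancer of procollagen C-proteinase, at 11.2 and 9.14 against 1.89 and 3.78 FPKM and the plasminogen activator urokinase (Plau) at 4.13 and 12.9 against 0.933 and 4.68 FPKM. Thbs1, Pcolce2 and Reck did not overlap between regions, like Mmp3 and Adamts4, and Plau did. Of the 21 tested genes of this list, the proximal pair lay wholly above the distal pair for 3 (12.9% of all tested genes) and wholly below it for 5 (8.67%).

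Of 12 Adam sheddases 6 were tested, 3 in each direction (median -0.09), with Adam23 at 7.10 and 1.05 against 15.6 and 2.86 FPKM, Adam19 at 1.33 and 3.01 against 1.04 and 1.52 FPKM and Adam9 at 37.1 and 58.6 against 28.9 and 44.8 FPKM. Of 6 astacins 1 was tested, the procollagen C-proteinase Bmp1, at 49.6 and 26.2 against 44.6 and 13.1 FPKM (log2 difference -0.55 ± 0.67, SE). Of 6 Adamts-like genes 4 were tested, 2 in each direction (median 0.07), with Adamtsl4 at 14.3 and 11.9 against 23.0 and 23.7 FPKM, Adamtsl1 at 10.8 and 8.22 against 9.78 and 5.36 FPKM and Adamtsl5 at 34.3 and 13.7 against 46.0 and 14.6 FPKM. Of these Adamtsl4 alone did not overlap between regions. Of 12 other matrix proteases 10 were tested, 7 with a higher proximal mean (median 0.13), with Dpp4 at 6.03 and 6.32 against 1.86 and 1.95 FPKM, cathepsin K (Ctsk) at 49.8 and 49.7 against 72.3 and 66.6 FPKM and Htra3 at 122 and 59.2 against 142 and 86.5 FPKM.

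Of 25 matrix substrates of the family 19 were tested, 6 with a higher proximal and 13 with a higher distal mean (median -0.19). Elastin (Eln), a substrate of several Mmps, had distal levels of 61.9 and 16.8 FPKM and proximal levels of 282 and 247 FPKM. Fibronectin (Fn1) stood at 13.8 and 28.2 against 6.43 and 12.4 FPKM and fibrillin 1 (Fbn1) at 45.9 and 69.2 against 34.0 and 40.8 FPKM. These 3 genes, named for their large differences, did not overlap between regions, Eln with higher proximal and the others with higher distal values. Of all 19 tested substrates, the proximal pair lay wholly above the distal pair for 2 (12.9% of all tested genes) and wholly below it for 3 (8.67%). Versican (Vcan), the substrate shared by Adamts1, Adamts4 and Adamts15, had distal levels of 13.3 and 21.4 FPKM and proximal levels of 10.9 and 14.2 FPKM, and aggrecan (Acan) did not reach the level for testing (both chosen after their values were seen).

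Defining genes of the sorted cells were checked beside the family. Fibroblast markers (7 genes, among them Dcn and Pdgfra) summed to 4315 to 5355 FPKM per library. Of the genes of the sorted surface proteins, Ly6a (Sca-1) had distal levels of 1016 and 868 FPKM and proximal levels of 687 and 738 FPKM. Cd24a (CD24), against which the cells were sorted, had distal levels of 9.64 and 19.1 FPKM and proximal levels of 8.06 and 54.6 FPKM, highest in proximal 3, and Itga6 (CD49f) had 0.501 and 0.785 against 0.622 and 1.34 FPKM. Smooth muscle and pericyte markers summed to 322 and 204 FPKM in the distal and 281 and 143 FPKM in the proximal libraries, endothelial markers to 8.03 to 9.29 FPKM, Schwann cell markers to at most 1.10 FPKM and adipocyte markers to at most 0.0913 FPKM. Of the 9 epithelial markers 8 were tested, and all 8 had a higher proximal mean, as did 60.3% of all tested genes. These 8 were also higher in both libraries numbered 3 than in both numbered 2, as were 20.3% of all tested genes. All 8 overlapped between regions, and 5 had the same sign in both numbers. Their median log2 difference was 0.15 within number 2 and 1.52 within number 3. The part of these cells in the differences described above was not tested. In such bulk samples a lower share of cells that express a gene and less RNA of it per cell cannot be told apart.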

How the data were processed

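FPKM per transcript, with lower and upper bounds and a coverage signal, was deposited by the authors for each of 4 libraries, per the file headers. RNA was made into cDNA with a SMART-Seq v4 kit, per the labels' protocols. Such kits do not mark strand. TopHat2 (0.6), Cufflinks (0.0.6) and bcl2fastq (1.8.3) are listed with mm10, per the submitters' processing notes, without settings or order. Total fragments are unknown. Coverage divided by FPKM, which follows depth, had medians of 5.22 to 6.34 in the deposited values.

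Transcripts (63241 per file) were named by position against GENCODE M21 on the same assembly, in 3 steps: span overlap times length similarity of at least 0.8, both ends within 100 bp of exons of 1 gene, or a similarity of at least 0.5 with any other gene under 0.25. This named 86.69% of transcripts and 96.12% of FPKM. All 45 members matched their namesake in RefSeq, and 0 had a failed or capped estimate. FPKM was summed per symbol. Genes reaching 1 FPKM in at least 2 libraries, without such an estimate, were tested as log2(FPKM + 1) with limma 3.58.1 (R 4.3.3), by a two-sided test with a mean-variance trend and Benjamini-Hochberg adjustment over 11206 genes. The fit was checked for returning planted differences in simulated data with independent spread and no effect of library number. Such data do not show how it performs on these libraries. Other steps ran in Python 3.11.15 (pandas 2.3.3, numpy 2.4.6), with figures from matplotlib 3.10.9.

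Members, lists and tests were chosen with earlier results of these data known. Every member is named; of each further list the text names the 3 tested genes with the largest difference, and any other is marked as chosen with its values in view. Among AP-1 factors these were Fos, Fosb and Jun. Alternatives were another pseudocount (0.1), other filters on low values, quantile normalization, median ratio scaling, other naming, kept estimates, a block on library number and each library left out.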

Additional observations from a re-analysis of the deposited data

How the results depend on the processing

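With 4 libraries of unknown depth, 0 genes and 0 members were called in the fit with region alone and under every alternative pseudocount, filter, scaling, naming and status rule. With the replicate block, 451 genes (304 higher in proximal) and 3 members passed (limma): Mmp3 (adjusted p = 0.0031) and Adamts4 (0.0364) with higher distal and Adamts15 (0.0427) with higher proximal values. The labels do not say what the library numbers stand for. The difference of number 3 minus number 2 correlated at 0.815 between the regions over genes, which are not independent replicates, and 2 pairs are too few to show pairing. With 1 library left out, 20 to 43 genes and 0 to 2 members passed, fits that mix region with number. The members' median log2 difference of 0.01 became -0.29 at a mean of at least 5 FPKM (16 members left), -0.16 under median ratio scaling, 0.17 with the first naming rule alone (20 members left) and -0.18 to 0.23 with 1 library left out. Of the 25 tested members 13 kept their sign in all fits that gave a value. The others changed it when 1 library was left out, with ranges of -1.25 to 0.19 (Adamts1), -0.65 to 1.43 (Adamts10), -0.67 to 0.69 (Adamts2), -0.53 to 0.38 (Adamts3), -0.16 to 0.38 (Adamts5), -1.13 to 0.23 (Adamts7), -0.84 to 0.016 (Adamts8), -1.04 to 0.23 (Adamts9), -0.40 to 0.90 (Mmp11), -0.13 to 1.27 (Mmp19), -0.94 to 0.46 (Mmp7) and -0.51 to 0.58 (Timp2). Median ratio scaling also reversed Adamts2 (-0.16), Adamts5 (-0.021) and Timp2 (-0.14), and quantile normalization Adamts5 (-0.087). The cause was not tested.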
